A study of Mus musculus with 12 samples.

Results

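Endothelial identity genes are the genes by which the cells lining blood and lymphatic vessels are recognised. The 9 examined here, Pecam1, Cdh5, Tek, Tie1, Vwf, Emcn, Plvap, Eng and Prox1, were taken by name from the 24062 gene symbols counted in each library, and all 9 were found and passed the filter on low counts. Messenger RNA was sequenced from wounds made in the back skin of C57BL/6 mice with diabetes induced by streptozotocin, a toxin of pancreatic beta cells, with 1 library per mouse and 12 mice in all. Treatment labels divide them into 3 mice with pre-MCS-01, 3 with post-MCS-01, 3 with DSCG and 3 labelled blank, which serve as controls. MCS-01 is a code-named mast cell stabilizer, and DSCG commonly stands for disodium cromoglycate, a cromone drug of the same use. The diabetes and the strain are common to all 4 groups, and the labels give no genotype, age, dose, time after wounding or meaning of pre and post. Streptozotocin diabetes lacks insulin and is a model of type 1 rather than type 2 diabetes.

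Healing skin grows vessels into the wound bed by sprouting from those at its edge, and diabetic wounds are known for poor vessel growth. Blood endothelial cells hold together through the adhesion molecules PECAM1 (CD31) and VE-cadherin, sense angiopoietins through the TIE receptors, and respond to BMP9 through endoglin. Lymphatic endothelial cells arise from venous cells under the transcription factor PROX1, which keeps their identity.

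Tissue labels were checked against marker genes of skin. Levels are in CPM, the reads of a gene scaled to equal library size. Summed over 8 genes of keratinocytes, the level was 21649 to 64787 CPM in the 12 libraries, and summed over 10 fibroblast genes it was 12544 to 70440 CPM. The 9 endothelial genes summed to 192 to 527 CPM in pre-MCS-01 wounds, 357 to 673 CPM in post-MCS-01 wounds, 408 to 683 CPM in DSCG wounds and 335 to 671 CPM in blank wounds. Another 26 general endothelial genes summed to 284 to 790 CPM, and none of them was at 0 in all libraries of a group. The libraries held 37702643 to 50461867 counts in genes, except blank 3 with 3835042. In 3 libraries, pre-MCS-01 2, DSCG 2 and blank 3, genes with long transcripts were low relative to genes with short ones, with slopes of -0.319, -0.260 and -0.191 in log2 CPM per doubling of exon length, against -0.0304 to 0.167 in the other 9. Fits without these libraries are given for the medians of the 9 genes in the comparisons that begin with pre-MCS-01, and for some named genes. List medians, summed levels, ratios between genes and similarity of pattern include all 12 libraries.

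On the mouse assembly GRCm38 with the GENCODE M21 annotation, all 9 are protein-coding genes. Tek, which encodes the angiopoietin receptor TIE2, lies on chromosome 4 at 94739289 to 94874976 on the plus strand, and Tie1, its co-receptor, lies on the same chromosome at 118471191 to 118490061 on the minus strand. Pecam1 lies at 106654217 to 106750628 on chromosome 11 and Cdh5, which encodes VE-cadherin, at 104101625 to 104144511 on chromosome 8. Plvap lies on chromosome 8 at 71497765 to 71511752, where Gtpbp3 overlaps it on the other strand, and Eng on chromosome 2 at 32646595 to 32682669, where Fpgs overlaps it on the other strand. Vwf lies at 125546774 to 125686679 on chromosome 6 and Emcn at 137341067 to 137432185 on chromosome 3. Prox1 lies on chromosome 1 at 190118035 to 190170714, and the antisense genes Prox1os and Gm28172 overlap it, as the antisense gene Gm29682 overlaps Cdh5. The strand setting of the counting is not given in the sources used here, so reads of overlapping genes on opposite strands cannot be told apart. Exons spanned from 1.987 kb in Plvap and 2.588 kb in Emcn to 7.913 kb in Prox1 and 8.834 kb in Vwf.

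Windows of 250 bases before to 50 bases after the annotated start were taken from RefSeq on GRCm38.p6 for 5 of the 9 genes, Tek, Tie1, Emcn, Eng and Prox1, which has 2 windows. Pecam1, Cdh5, Vwf and Plvap were not shown. The 4 windows printed, 5' to 3' on the strand of the gene, are shown because short motifs of transcription factors known from endothelial gene regulation were present in them. Motifs searched on both strands were AGGAAG, the core recognised by ETS factors, which reads CTTCCT on the opposite strand, then GATAAG, known from the zinc finger factor GATA2 and its relatives, and TGTTTAC, known from forkhead factors. Capitals mark every match. The Tek window is chr4:94739039-94739338 (plus strand), the Tie1 window chr4:118489800-118490099 (minus strand), the Emcn window chr3:137340828-137341127 (plus strand) and the Eng window chr2:32646345-32646644 (plus strand).
Tek promoter: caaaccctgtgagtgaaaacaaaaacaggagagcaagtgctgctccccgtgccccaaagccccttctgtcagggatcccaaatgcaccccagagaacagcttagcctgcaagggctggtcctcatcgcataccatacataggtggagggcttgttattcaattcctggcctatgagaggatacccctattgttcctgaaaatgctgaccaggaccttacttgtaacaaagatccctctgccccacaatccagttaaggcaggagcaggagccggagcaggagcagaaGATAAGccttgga
Tie1 promoter: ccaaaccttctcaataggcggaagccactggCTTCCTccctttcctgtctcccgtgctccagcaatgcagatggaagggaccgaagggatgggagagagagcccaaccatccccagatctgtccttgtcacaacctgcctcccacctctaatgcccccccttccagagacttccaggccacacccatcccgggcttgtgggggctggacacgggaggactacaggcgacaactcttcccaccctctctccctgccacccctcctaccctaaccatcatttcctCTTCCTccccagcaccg
Emcn promoter: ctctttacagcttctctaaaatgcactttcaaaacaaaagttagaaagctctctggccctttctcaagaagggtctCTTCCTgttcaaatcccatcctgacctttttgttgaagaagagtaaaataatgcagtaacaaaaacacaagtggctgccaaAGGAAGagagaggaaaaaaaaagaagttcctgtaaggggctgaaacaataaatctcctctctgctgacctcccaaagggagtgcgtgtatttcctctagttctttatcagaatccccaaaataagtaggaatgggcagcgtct
Eng promoter: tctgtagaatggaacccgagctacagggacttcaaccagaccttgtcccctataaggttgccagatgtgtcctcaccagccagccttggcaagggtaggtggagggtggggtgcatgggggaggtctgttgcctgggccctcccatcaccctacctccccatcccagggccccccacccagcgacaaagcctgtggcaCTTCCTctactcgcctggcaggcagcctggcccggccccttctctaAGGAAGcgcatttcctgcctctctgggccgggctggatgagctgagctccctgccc
The Tie1, Emcn and Eng windows each held 2 matches to AGGAAG, and the Tek window held 1 to GATAAG and none to AGGAAG. Neither Prox1 window held any of the 3 motifs, and no 2 matches overlapped. Of 32851 promoter windows of this length, 35.4% held AGGAAG, 7.44% held GATAAG and 3.65% held TGTTTAC. A match describes letters in the window and not a bound site.

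Per kilobase of exon, the scale on which genes can be compared, Plvap had the highest level of the 9, with a mean over the 12 libraries of 87.7 ± 25.7 CPM per kb (SD, n = 12). Plvap encodes the diaphragm protein of fenestrated and activated endothelium. It was followed by Eng at 24.0 ± 7.71, Pecam1 at 16.9 ± 6.12, Cdh5 at 12.0 ± 5.53 and Tie1 at 10.5 ± 3.09 CPM per kb. Lower levels were those of Vwf at 5.88 ± 2.13, Emcn at 3.26 ± 0.909 and Tek at 3.02 ± 1.21 CPM per kb, and Prox1 was lowest at 0.148 ± 0.0972 CPM per kb. Plvap was above Eng, Eng above Pecam1, Pecam1 above Cdh5, Tie1 above Vwf and Tek above Prox1 in all 12 libraries. Neighbours that changed places between libraries were Cdh5 and Tie1, with Cdh5 above in 9 of 12, Vwf and Emcn, with Vwf above in 10, and Emcn and Tek, with Emcn above in 8. The order of group means was the same in the 4 groups, except that Tek was above Emcn in blank wounds.

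Pecam1 encodes CD31, an adhesion molecule of endothelial junctions that platelets and leukocytes also carry. Its level in CPM, scaled by TMM factors, was 42.7, 17.7 and 64.6 in pre-MCS-01 wounds, 68.3, 44.9 and 88.1 in post-MCS-01 wounds, 79.1, 51.8 and 58.4 in DSCG wounds and 82.8, 66.1 and 33.0 in blank wounds. Replicates are listed as 1, 2 and 3 in each group, here and below. Pre-MCS-01 2 was lowest of the 12 and post-MCS-01 3 highest, and all 4 groups overlapped. The means were 41.7 ± 23.5 CPM in pre-MCS-01 wounds, 67.1 ± 21.7 in post-MCS-01 wounds, 63.1 ± 14.2 in DSCG wounds and 60.7 ± 25.4 in blank wounds (SD, n = 3 each).

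Cdh5 encodes VE-cadherin, the adhesion molecule of endothelial adherens junctions. It had 33.6, 10.4 and 63.7 CPM in pre-MCS-01 wounds, 50.4, 38.2 and 67.7 CPM in post-MCS-01 wounds, 71.9, 27.2 and 51.0 CPM in DSCG wounds and 78.9, 62.8 and 19.4 CPM in blank wounds. The low values were those of the 3 libraries short of long transcripts, and the groups overlapped. Among the 8 genes other than Prox1, Cdh5 had the widest range, 7.57 times between pre-MCS-01 2 and blank 1.

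Tek had 9.57, 5.68 and 12.2 CPM in pre-MCS-01 wounds, 12.5, 8.18 and 17.1 CPM in post-MCS-01 wounds, 21.8, 10.7 and 16.7 CPM in DSCG wounds and 23.8, 20.3 and 11.8 CPM in blank wounds. Pre-MCS-01 3 was above blank 3, the shallow library, so the pre-MCS-01 and blank groups overlapped by this 1 pair. Tie1, the orphan receptor that pairs with TIE2, had 34.3, 18.9 and 49.1 CPM in pre-MCS-01 wounds, 49.3, 33.5 and 53.4 CPM in post-MCS-01 wounds, 61.0, 35.1 and 42.6 CPM in DSCG wounds and 59.5, 47.0 and 30.7 CPM in blank wounds. All groups overlapped for Tie1.

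Vwf encodes von Willebrand factor, the clotting protein stored by endothelial cells and platelets. Its level was 40.3, 12.6 and 60.5 CPM in pre-MCS-01 wounds, 53.6, 48.9 and 63.7 CPM in post-MCS-01 wounds, 84.3, 33.3 and 51.5 CPM in DSCG wounds and 66.9, 67.5 and 40.1 CPM in blank wounds. The post-MCS-01 libraries lay close together, with a coefficient of variation of 13.6%, against 63.7% in pre-MCS-01 wounds, 45.8% in DSCG wounds and 26.9% in blank wounds. Emcn encodes endomucin, a sialomucin of capillary and venous endothelium. It had 7.43, 4.23 and 8.49 CPM in pre-MCS-01 wounds, 8.26, 6.72 and 12.1 CPM in post-MCS-01 wounds, 10.8, 9.98 and 6.80 CPM in DSCG wounds and 11.8, 8.17 and 6.55 CPM in blank wounds. Emcn was the only member for which DSCG 2 was not the lowest DSCG library.

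Plvap had 133, 81.8 and 169 CPM in pre-MCS-01 wounds, 203, 114 and 238 CPM in post-MCS-01 wounds, 237, 166 and 192 CPM in DSCG wounds and 233, 191 and 133 CPM in blank wounds. Eng encodes endoglin, a co-receptor for BMP9 of endothelium that is also made by some macrophages and stromal cells. It had 63.6, 40.5 and 97.1 CPM in pre-MCS-01 wounds, 103, 61.4 and 131 CPM in post-MCS-01 wounds, 116, 73.3 and 73.7 CPM in DSCG wounds and 113, 96.4 and 59.7 CPM in blank wounds. For both genes the groups overlapped, with pre-MCS-01 2 lowest and post-MCS-01 3 highest of the 12.

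Prox1 was counted with few reads, 17, 1 and 80 in pre-MCS-01 wounds, 45, 48 and 70 in post-MCS-01 wounds, 37, 15 and 68 in DSCG wounds and 101, 126 and 2 in blank wounds. In CPM this was 0.423, 0.0284 and 1.84 in pre-MCS-01 wounds, 1.13, 1.15 and 1.61 in post-MCS-01 wounds, 0.937, 0.330 and 1.44 in DSCG wounds and 1.98, 2.62 and 0.524 in blank wounds. The 1 read of pre-MCS-01 2 has an exact 95% Poisson interval of 0.000719 to 0.158 CPM and the 2 reads of blank 3 one of 0.0635 to 1.89 CPM, counting error only. The interval of blank 3 therefore takes in the values of all 3 DSCG and all 3 post-MCS-01 libraries as measured. The interval of pre-MCS-01 2 lies below the measured values of the other 11 libraries, but it overlaps with the interval of blank 3.

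**Figure D1:**
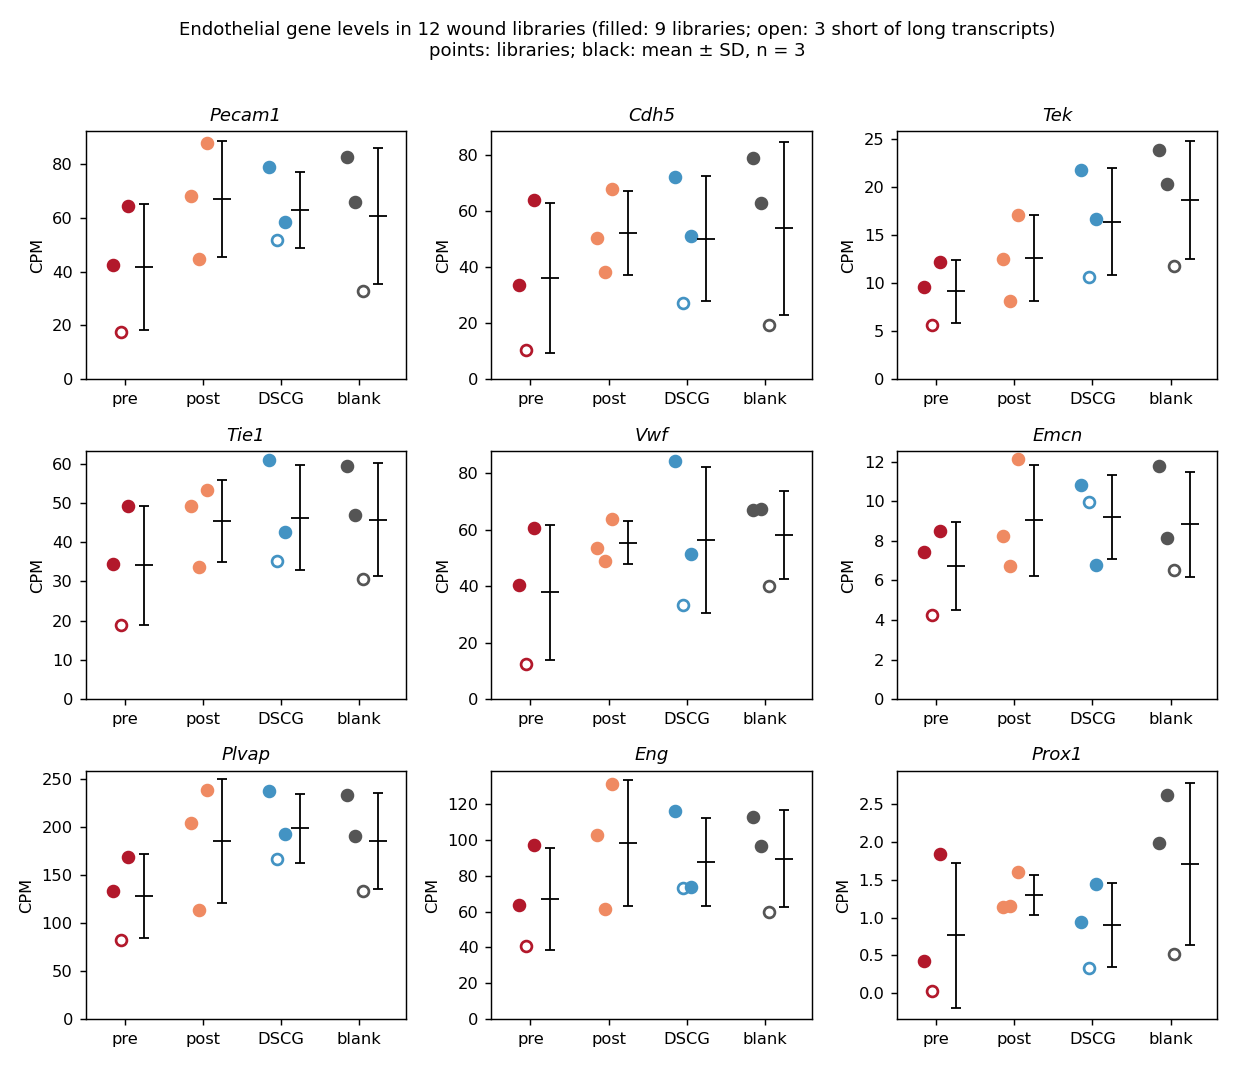
Levels of the 9 endothelial genes in CPM by treatment group, with 1 point per library and the mean ± SD of 3 libraries beside them in black. Open points are the 3 libraries short of long transcripts. The pre-MCS-01 point shown open is the lowest of the 12 in every panel, and no group stands clear of another in any panel.

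High and low libraries were largely shared by the 9 genes. Pre-MCS-01 2 was the lowest of the 12 libraries for 9 of 9 genes. Within the groups, pre-MCS-01 3 was highest and blank 3 lowest for 9 of 9, post-MCS-01 3 was highest for 9 of 9, and post-MCS-01 2 and DSCG 2 were lowest for 8 of 9 each. Blank 1 and DSCG 1 were highest in their groups for 7 and 8 of 9. The members share library, depth and wound piece, so their joint movement is 1 observation per library and not 9. In bulk tissue, fewer endothelial cells and less RNA per endothelial cell cannot be told apart.

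Deviations were set beside those of other genes of the same exon length. In pre-MCS-01 2, the 9 genes lay at a median of -1.20 from their means over the 12 libraries in log2 CPM, where the line over 15521 genes against exon length gave -0.15 at their lengths. In DSCG 2 the median was -0.22 and the line gave -0.14, and in blank 3 the median was -0.42 and the line gave -0.23. After subtraction of the line, the medians were -1.20 in pre-MCS-01 2, -0.08 in DSCG 2 and -0.23 in blank 3. Across the 9 genes, Spearman's rho between exon length and deviation was -0.67 in pre-MCS-01 2, -0.85 in DSCG 2 and 0.18 in blank 3, a description over genes of 1 library. In pre-MCS-01 2 the deviations were -1.02 for Plvap and -0.93 for Emcn, both short, where the line gave 0.17 and 0.05. They were -1.92 for Vwf and -3.52 for Prox1, both long, where the line gave -0.52 and -0.46. The part of transcript length in these values was not tested.

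**Figure D2:**
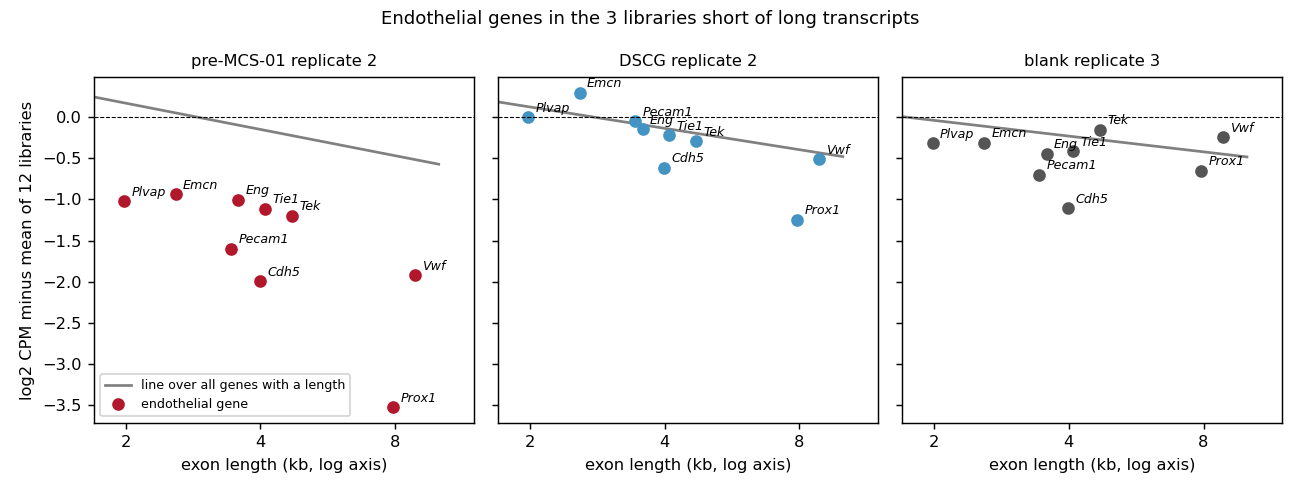
Deviation of each endothelial gene from its mean over 12 libraries (log2 CPM) against exon length in kb on a log axis, in the 3 libraries short of long transcripts. The grey line is fitted over all genes with a length. All 9 genes lie below the line in pre-MCS-01 2, and 7 of 9 do in DSCG 2 and in blank 3.

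The comparison of pre-MCS-01 with blank wounds asks whether the endothelial transcripts differed under that treatment. All 9 genes had lower fitted means in pre-MCS-01 wounds, as did 45.9% of the 16267 genes tested, and none passed an adjusted p under 0.05 in edgeR's quasi-likelihood test, where 0% of all genes did. Tek had the lowest fold change of the 8 well-counted genes, with 9.15 ± 3.28 CPM in pre-MCS-01 wounds and 18.6 ± 6.18 CPM in blank wounds (SD, n = 3 each), a log2 fold change of -1.04 ± 0.39 (SE; edgeR adjusted p = 0.669). Its 95% interval, -1.90 to -0.19, was the only one of the 9 to leave out 0, and its unadjusted edgeR p was 0.0209, a level that 7.24% of all genes reached. Prox1 had a log2 fold change of -1.28 ± 0.91, with an interval of -3.27 to 0.71. The other 7 genes lay between -0.63 and -0.42, namely Vwf at -0.63 ± 0.48, Cdh5 at -0.60 ± 0.62, Pecam1 at -0.55 ± 0.45, Plvap at -0.54 ± 0.33, Tie1 at -0.43 ± 0.36, Eng at -0.42 ± 0.37 and Emcn at -0.42 ± 0.34. The widest of their intervals, that of Cdh5, ran from -1.95 to 0.75. It took in falls of more than 2-fold and rises of up to about 1.69-fold, and the others were narrower.

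The median of the 9 log2 fold changes was -0.55, against 0.04 over all genes tested. It was -0.19 without pre-MCS-01 2, -1.05 without pre-MCS-01 3, -0.30 without blank 1, -0.83 without blank 3 and -0.49 with the 3 libraries short of long transcripts left out, and the sign of no member changed in any of these fits. Tek lay at -1.03 when those 3 libraries were left out and at -0.79 without pre-MCS-01 2. The groups overlapped for all 9 genes, whereas 5.96% of all genes had pre-MCS-01 wholly below blank and 8.41% wholly above. When libraries were weighted by quality in limma-voom, Tek and Prox1 passed (adjusted p = 0.0148 and 0.0221), with 2485 genes of all.

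Fitted means in post-MCS-01 wounds lay on both sides of those in blank wounds. The median log2 fold change of the 9 genes was -0.02 and of all genes -0.01, with 6 of 9 below 0 and 50.8% of all genes below 0. None of the 9 was called by edgeR, where 0% of all genes were, and none reached an unadjusted p under 0.05, where 9.35% of all genes did. The groups overlapped for all 9, whereas 9.45% of all genes had post-MCS-01 wholly below blank and 8.92% wholly above. The members ranged from Tek at -0.59 ± 0.39 (12.6 ± 4.46 CPM in post-MCS-01 wounds and 18.6 ± 6.18 CPM in blank wounds) to Pecam1 at 0.14 ± 0.45, whose sign turned in some other fits. Intervals of the 8 genes other than Prox1 ran from -1.43 to 1.28, so the data do not show that these groups were alike.

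DSCG wounds likewise had a median of -0.04 for the 9 genes against blank, with -0.00 over all genes tested. The lowest was Prox1 at -1.06 ± 0.90, with 0.902 ± 0.556 CPM in DSCG wounds and 1.71 ± 1.07 CPM in blank wounds, and the highest Plvap at 0.09 ± 0.33, whose sign turned without DSCG 1 or blank 3. Of the 9 genes 5 lay below 0, as did 50.2% of all genes, and none was called by edgeR, where 0% of all genes were. None reached an unadjusted p under 0.05, where 1.03% of all genes did, and the groups overlapped for all 9, whereas 1.77% of all genes had DSCG wholly below blank and 1.91% wholly above. The intervals of the 8 genes other than Prox1 spanned -1.46 to 1.23.

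Between the MCS-01 groups, all 9 genes had lower fitted means in pre-MCS-01 wounds, as did 47.5% of all genes. None was called by edgeR, where 0.824% of all genes were, and none reached an unadjusted p under 0.05, where 10.2% of all genes did. Pecam1 had the lowest fold change of the well-counted genes, -0.69 ± 0.45, followed by Eng at -0.55 ± 0.37 and Vwf at -0.55 ± 0.48. Cdh5 lay at -0.54 ± 0.62, Plvap at -0.53 ± 0.33, Tek at -0.46 ± 0.39, Emcn at -0.43 ± 0.34 and Tie1 at -0.41 ± 0.36. Prox1 lay at -0.75 ± 0.90, and adjusted p values of the 9 were 0.619 to 0.782 in edgeR. The median was -0.54, and -0.19 without pre-MCS-01 2, -0.97 without pre-MCS-01 3, -0.33 without post-MCS-01 3 and -0.22 with the 3 libraries short of long transcripts left out. The groups overlapped for all 9, whereas 7.01% of all genes had pre-MCS-01 wholly below post-MCS-01 and 10.7% wholly above.

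Against DSCG, pre-MCS-01 wounds again had lower fitted means for 9 of 9 genes, with 45.4% of all genes below 0. Tek was lowest at -0.84 ± 0.39, with 9.15 ± 3.28 CPM in pre-MCS-01 wounds and 16.4 ± 5.57 CPM in DSCG wounds, and its interval of -1.69 to 0.01 just took in 0. Plvap followed at -0.63 ± 0.33, Pecam1 at -0.60 ± 0.45, Vwf at -0.57 ± 0.48, Cdh5 at -0.48 ± 0.61, Emcn at -0.45 ± 0.34, Tie1 at -0.44 ± 0.36, Eng at -0.39 ± 0.37 and Prox1 at -0.22 ± 0.90. None was called by edgeR, where 0% of all genes were, and none reached an unadjusted p under 0.05, where 2.36% of all genes did. The groups overlapped for all 9, whereas 2.59% of all genes had pre-MCS-01 wholly below DSCG and 2.53% wholly above. The median of -0.48 was -0.16 without pre-MCS-01 2, -1.10 without pre-MCS-01 3, -0.19 without DSCG 1, -0.72 without DSCG 2 and -0.36 with the 3 libraries short of long transcripts left out. The 3 comparisons that begin with pre-MCS-01 share its 3 libraries, so their 27 fold changes below 0 are not 27 separate observations.

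Post-MCS-01 and DSCG wounds differed by a median of -0.02 over the 9 genes, with Tek lowest at -0.38 ± 0.38 and Prox1 highest at 0.52 ± 0.89. Of the 9 genes 5 lay below 0, as did 50.6% of all genes. None was called by edgeR, where 1.06% of all genes were, and none reached an unadjusted p under 0.05, where 11.3% of all genes did. The groups overlapped for all 9, whereas 8.28% of all genes had post-MCS-01 wholly below DSCG and 7.14% wholly above. In the joint test of the 4 groups, 0 of 9 genes and 0% of all genes passed in edgeR, and 0 of 9 reached an unadjusted p under 0.05, where 8.42% of all genes did. Tek had the lowest adjusted p, 0.700, and Cdh5 the highest, 0.961.

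**Figure D3:**
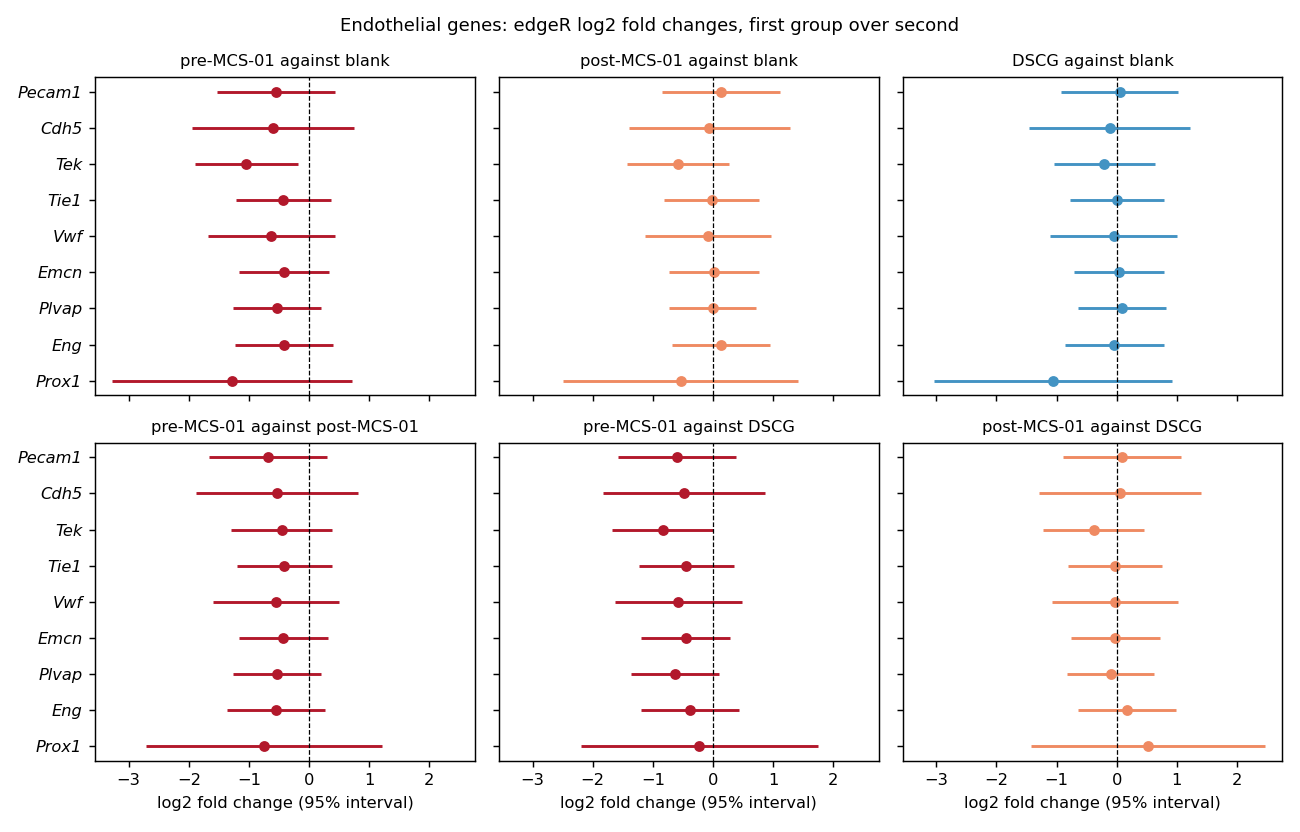
Log2 fold changes of the 9 genes with 95% intervals from edgeR, in 6 panels, with the group named first over the group named second. In the 3 panels with pre-MCS-01 first all points lie left of 0, and only the Tek interval against blank leaves out 0.

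To set the library-wide movement aside, each gene was also expressed as its log2 CPM minus the mean log2 CPM of the other 8 in the same library. On this scale Pecam1 varied least, with a range of 0.54 over the 12 libraries, and Prox1 most, with a range of 3.40. Since Prox1 is among the other 8, its 1 read in pre-MCS-01 2 enters the ratios of every other gene there.

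Tek lay lower relative to its companions in post-MCS-01 wounds, at -1.45, -1.61 and -1.34, than in DSCG wounds, at -0.92, -1.10 and -0.91, and in blank wounds, at -0.91, -0.94 and -0.74. The post-MCS-01 values did not overlap with those of DSCG or blank wounds. Pre-MCS-01 values were spread over -1.21, -0.68 and -1.58 and overlapped with each of the other groups. Mean ratios of Tek were -1.47 ± 0.14 in post-MCS-01 wounds, -0.98 ± 0.11 in DSCG wounds and -0.86 ± 0.10 in blank wounds (SD, n = 3 each).

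Pecam1 had ratios of 1.21, 1.16 and 1.12 in pre-MCS-01 wounds, 1.30, 1.14 and 1.31 in post-MCS-01 wounds, 1.17, 1.46 and 1.12 in DSCG wounds and 1.11, 0.98 and 0.92 in blank wounds. All 9 treated libraries lay above all 3 blank libraries, but the nearest pair, pre-MCS-01 3 and blank 1, differed by less than the spread within the groups. The separations of Tek and Pecam1 were picked out after the values were seen. Each had an exact two-sided permutation p of 0.1. That is the smallest value 3 against 3 libraries allow, so this test could not pass 0.05. Ratios that did not overlap numbered 1 of 9 genes in pre-MCS-01 against blank, where 12.4% of all other genes set against the same members did, 2 of 9 in post-MCS-01 against blank (8.88%), 1 of 9 in DSCG against blank (1.37%) and 1 of 9 in post-MCS-01 against DSCG (7.53%). There were 0 of 9 in pre-MCS-01 against post-MCS-01 (8.32%) and 0 of 9 in pre-MCS-01 against DSCG (9.42%).

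**Figure D4:**
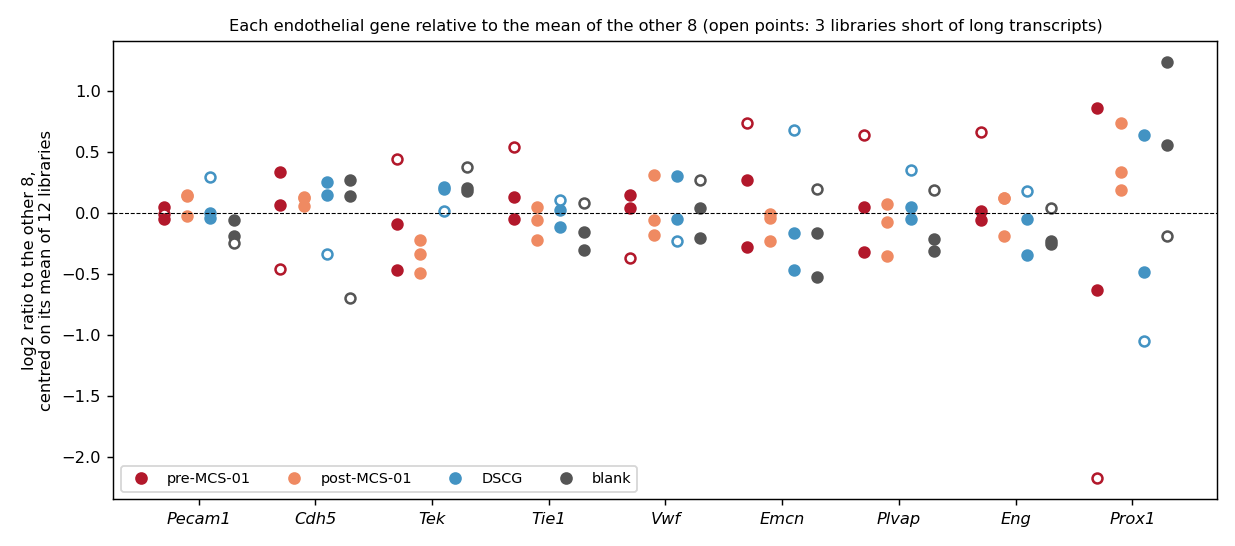
Log2 ratio of each endothelial gene to the mean of the other 8 in the same library, centred on its mean over 12 libraries. Colours give the treatment and open points the 3 libraries short of long transcripts. The post-MCS-01 points of Tek lie below its DSCG and blank points, and the blank points of Pecam1 lie below all its others.

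Other genes of the same cells were read from lists of vascular genes, given by counts and medians. Over all genes tested, the median log2 fold change was 0.04 in pre-MCS-01 against blank, with 45.9% below 0 and 0% called by edgeR, and it was -0.01 in post-MCS-01 against blank and -0.00 in DSCG against blank. Of 26 general endothelial genes, 24 were below 0 in pre-MCS-01 against blank, with a median of -0.60, and none was called. Kdr, the main VEGF receptor, had a log2 fold change of -0.69 ± 0.58, Cldn5, a claudin of endothelial tight junctions, -1.11 ± 0.35 with 16.0 ± 2.72 CPM in pre-MCS-01 wounds and 34.7 ± 3.19 CPM in blank wounds, Esam, a junction adhesion molecule, -0.58 ± 0.34, and Robo4, a guidance receptor of endothelium, -0.59 ± 0.45. The edgeR adjusted p of Cldn5 was 0.617. Podxl, a sialomucin chosen here after its values were seen, lay at -1.05 ± 0.48. The same list had a median of -0.17 in post-MCS-01 against blank and -0.06 in DSCG against blank.

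Lists for vessel type were below 0 in pre-MCS-01 against blank to different degrees, and none of their genes was called. Arterial genes had a median of -0.29, with 10 of 11 below 0, among them the connexins Gja5 at -0.57 ± 0.48 and Gja4 at -0.43 ± 0.36, the Notch ligand Dll4 at -0.17 ± 0.46 and the Notch target Hey1 at -0.59 ± 0.33. Venous and activated genes had a median of -0.55, with 10 of 10 below 0, among them Nr2f2, the transcription factor of venous identity, at -0.80 ± 0.54, the leukocyte adhesion molecules Selp at -0.52 ± 0.64 and Sele at -0.56 ± 0.60, and the receptor Ephb4 at -0.25 ± 0.21. Capillary and metabolic genes had a median of -0.65, with 10 of 12 below 0. Of the first 4 of that list, Car4, a carbonic anhydrase of capillaries, was at 1.48 ± 0.75 (-0.31 without pre-MCS-01 3), Rgcc at -0.09 ± 0.27 and Gpihbp1, which anchors lipoprotein lipase in capillaries, at -0.13 ± 0.31. Cd36, a fatty acid receptor that adipocytes and macrophages also express, was at -1.42 ± 0.39 (31.1 ± 4.00 CPM in pre-MCS-01 wounds and 83.1 ± 16.7 CPM in blank wounds, edgeR adjusted p = 0.610). Tip and sprouting genes had a median of -0.12, with 6 of 10 below 0. Among the 10 were Apln, a peptide hormone gene, at -0.21 ± 0.59, Esm1, which encodes endocan, at 0.12 ± 0.66, and Pgf, the placental growth factor of the VEGF family, at 0.81 ± 0.40. Signs of Dll4, Selp, Car4, Rgcc, Apln and Esm1 turned in some other fits. The corresponding medians in post-MCS-01 against blank were -0.03, 0.23, -0.20 and 0.03, and in DSCG against blank 0.00, -0.19, -0.14 and -0.06.

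Pathway partners of the members were measured too. Of 13 genes around the angiopoietin receptors, 10 were below 0 in pre-MCS-01 against blank, with a median of -0.36. Angpt1, the ligand that activates TIE2, had a log2 fold change of -0.54 ± 0.36, and Ptprb, the phosphatase that restrains TIE2, -0.81 ± 0.56. Angpt2, the ligand that can oppose ANGPT1, averaged 9.29 ± 5.54 CPM in pre-MCS-01 wounds and 8.01 ± 5.41 CPM in blank wounds (SD, n = 3 each). Of 12 genes around endoglin and BMP9, 6 were below 0 and the median was 0.04. Acvrl1, the type I receptor that binds BMP9 (ALK1), was at -0.57 ± 0.30, whereas Id1, a target gene of BMP signalling chosen here after its values were seen, was at 0.57 ± 0.28. Of 13 junction and adhesion partners, 4 were below 0 and the median was 0.04. Most of those, such as the catenins, are also made by keratinocytes, and Jam2, an adhesion molecule of endothelium chosen after its values were seen, was at -1.15 ± 0.43.

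Lymphatic genes held the only call among the vascular lists, in pre-MCS-01 against post-MCS-01, where 0.824% of all genes were called. Lyve1, which encodes a receptor for hyaluronan found on lymphatic vessels and on a subset of macrophages, averaged 10.1 ± 1.95 CPM in pre-MCS-01 wounds and 30.4 ± 8.84 CPM in post-MCS-01 wounds (SD, n = 3 each), a log2 fold change of -1.59 ± 0.23 (edgeR adjusted p = 0.0313). The call was lost with limma-voom (adjusted p = 0.109), with exon-length trend as a covariate (0.0955) and with the 3 libraries short of long transcripts left out (0.257). It was also lost without pre-MCS-01 2 (adjusted p = 0.0682) or 3 (0.0506), without post-MCS-01 1 (0.141), 2 (0.141) or 3 (0.230), without DSCG 3 (0.0513) and without blank 3 (0.0626), while the fold change stayed between -1.80 and -1.36 in these fits. Macrophage genes were low in the same comparison, with 11 of 12 below 0 in pre-MCS-01 against post-MCS-01 and a median of -0.91, where all genes had 0.03, and none was called. Among them Mrc1 was at -1.50 ± 0.36 and Cd163 at -1.82 ± 0.46 (edgeR adjusted p = 0.104 and 0.135), both markers of tissue-resident macrophages and chosen after their values were seen. The part of macrophages in the Lyve1 difference was not tested. In pre-MCS-01 against blank, 9 of 11 lymphatic genes were below 0, with a median of -0.69 and no call. Flt4, the receptor of VEGFC, lay at a log2 fold change of -1.18 ± 0.60, Mmrn1 at -1.71 ± 0.58, Reln at -1.46 ± 0.65 and Foxc2, a transcription factor of lymphatic valves, at -1.68 ± 0.55. These 4 were the lowest of the 11 and were chosen after their values were seen, and 2 of the 11 lay above 0. Foxc2 was low in post-MCS-01 wounds too, at 2.63 ± 1.09 CPM against 7.10 ± 3.67 CPM in blank wounds. Gja1, a connexin that keratinocytes also make, was at 931 ± 147 CPM in pre-MCS-01 wounds and 685 ± 262 CPM in blank wounds. Ccl21a, a chemokine of lymphatic vessels, had no count in any library.

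Marker lists of other cells had medians on both sides of 0 in pre-MCS-01 against blank, and not all followed the 9 genes from library to library. In pre-MCS-01 1, 2 and 3, adipocyte genes summed to 447, 665 and 178 CPM, where the 9 genes summed to 365, 192 and 527 CPM. Medians in pre-MCS-01 against blank were -0.61 over 12 pericyte and smooth muscle genes, -0.70 over 12 macrophage genes, -0.50 over 10 fibroblast genes and -1.71 over 8 adipocyte genes, with 9 of 12, 11 of 12, 10 of 10 and 8 of 8 below 0. They were 1.11 over 8 neutrophil genes, 1.05 over 10 hair genes and 0.23 over 8 keratinocyte genes, with 0, 0 and 1 below 0. Summed hair genes set the post-MCS-01 wounds apart, with 11293 to 25977 CPM in pre-MCS-01 wounds, 41.8 to 92.7 CPM in post-MCS-01 wounds, 1717 to 35438 CPM in DSCG wounds and 6005 to 17413 CPM in blank wounds. Their median log2 fold change was -7.47 in post-MCS-01 against blank, with 0 of 10 called by edgeR, where 0% of all genes were. It was 8.33 in pre-MCS-01 against post-MCS-01, with 7 of 10 called higher, where 0.824% of all genes were called in either direction. In post-MCS-01 against DSCG it was -8.75, with 9 of 10 called lower, where 1.06% of all genes were called in either direction. The endothelial comparisons with post-MCS-01 wounds are therefore between wounds whose hair gene sums did not overlap. Summed macrophage genes reached 1358 to 1711 CPM in pre-MCS-01 wounds, 1929 to 3309 CPM in post-MCS-01 wounds, 1312 to 2638 CPM in DSCG wounds and 2116 to 2273 CPM in blank wounds. Summed neutrophil genes reached 4138 to 6558 CPM in pre-MCS-01 wounds, 4684 to 10496 CPM in post-MCS-01 wounds, 45.0 to 3769 CPM in DSCG wounds and 583 to 941 CPM in blank wounds. Summed adipocyte genes reached 178 to 665 CPM in pre-MCS-01 wounds, 249 to 642 CPM in post-MCS-01 wounds, 699 to 953 CPM in DSCG wounds and 719 to 1479 CPM in blank wounds. Platelet genes, which bear on Pecam1 and Vwf, summed to 93.3 to 131 CPM in pre-MCS-01 wounds, 92.5 to 134 CPM in post-MCS-01 wounds, 67.5 to 170 CPM in DSCG wounds and 75.8 to 114 CPM in blank wounds, with 1 of 11 genes at 0 in all libraries of the post-MCS-01, DSCG and blank groups. No gene of the hair, macrophage, neutrophil or adipocyte lists was at 0 in all libraries of a group, and the part of these cells in the endothelial values was not tested.

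**Figure D5:**
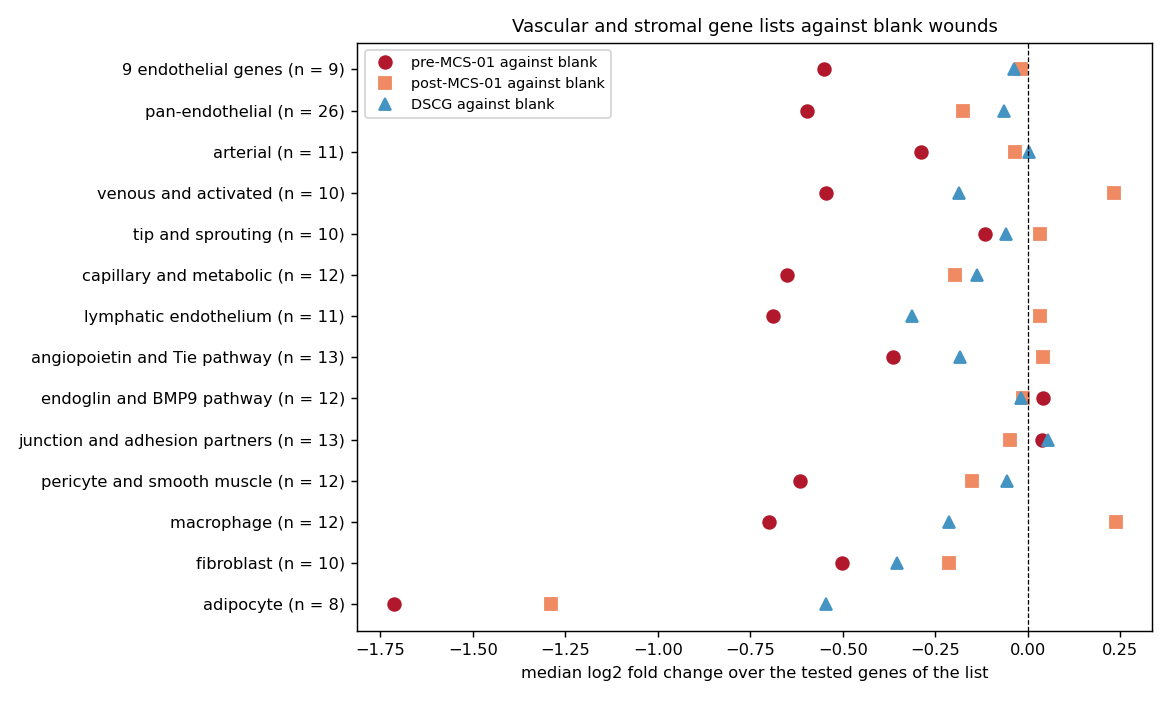
Median log2 fold change against blank wounds of the 9 endothelial genes, 9 further lists of vascular genes and 4 lists of other genes, with 1 symbol for each treatment. Red points for pre-MCS-01 lie at -0.55 for the 9 genes and between -0.69 and 0.04 for the other vascular lists, and at -1.71 for adipocyte genes. Lists not drawn include those of neutrophil, hair and keratinocyte genes, with medians of 1.11, 1.05 and 0.23 in pre-MCS-01 against blank.

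For each member the genes of most similar pattern were sought among 14128 others, as the root mean square difference of log2 CPM over 12 libraries, each gene centred on its own mean. Tie1 was nearest to Arap3 (0.109), Lipa (0.110) and Elmo1 (0.128), and Eng to Ptger1 (0.115), Nos3 (0.120) and Dysf (0.125). Genes near Plvap were Lipa (0.116) and Gja4 (0.135). Lipa, a lysosomal lipase, was thus among the nearest to both Tie1 and Plvap. Pecam1 was nearest to Robo4 (0.157), Pde2a (0.161) and Mmrn2 (0.176), Cdh5 to Kdr (0.154), Nr2f2 (0.190) and Shank3 (0.215), and Vwf to Nr2f2 (0.174), Mmrn2 (0.203) and Tshz2 (0.231). Emcn was nearest to Pear1 (0.147), Rasip1 (0.166) and Prkar1b (0.166). Genes near Tek were Ehd2 (0.207) and Steap3 (0.213), which, like those named for Tie1 and Emcn, are in none of the vascular lists. Prox1 was nearest to A330074K22Rik (0.408), Tram2 (0.420) and Reln (0.498). These differences were larger than those of the other members, and Prox1 itself also varied most. Among the members the closest pair was Tie1 and Eng, with a difference of 0.127, and Prox1 stood farthest from its nearest member, Cdh5, at 0.677. For scale, the members' own deviations from their means were 0.408 for Emcn, 0.462 for Tie1, 0.842 for Cdh5 and 1.35 for Prox1.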

How the data were processed

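Messenger RNA of 12 wounds, 1 mouse each, was counted per gene. Total RNA was made into libraries with a TruSeq RNA kit, per the labels. The authors deposited a file of raw counts for each library. The submitters' processing notes name mm10, the aligners TopHat2 and Bowtie2, the counter HTSeq, and FastQC and limma, with versions not given in the sources used here. Summary lines that name no gene held 22.9% to 29.3% of all counts and were left out.

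From the deposited counts, filterByExpr kept 16267 genes, and TMM factors (0.905 to 1.07) scaled the libraries. All 6 pairs of groups were tested with the two-sided quasi-likelihood test of edgeR 4.0.16 in R 4.3.3, in 1 model of 12 libraries with a mean per group, and with a joint test. Benjamini-Hochberg adjustment ran over all tested genes, with a threshold of 0.05. P values set the difference between group means against the fitted spread between libraries, 1 per mouse. That spread also holds differences in library quality. CPM values are scaled by TMM factors, log2 CPM uses a prior count of 2, and n = 3 libraries per group. The biological coefficient of variation was 0.347. No 2 libraries agreed within sampling noise. Replicate numbers follow record order, and the labels give no batch. Exon lengths (GENCODE M21) matched 94.5% of genes.

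The 9 members, the 21 other lists, the tests and the other settings were chosen with earlier results of these data known. The naming rule took all members, of each list the called genes (at most 4) or else up to the first 4, and the 3 most similar genes per member, of which 1 each for Plvap and Tek is not reported here. Outside it, Podxl, Id1, Jam2, Flt4, Mmrn1, Reln, Foxc2, Gja1, Ccl21a, Mrc1 and Cd163 were named after their values were seen, and called hair genes are given by count. Other settings were RLE and total-count scaling, TMM without keratin genes, no filter, DESeq2 1.42.0, limma-voom 3.58.1 with and without library quality weights, a fit of 2 groups alone, each library left out, the 3 libraries short of long transcripts left out, and exon-length trend as a covariate. The steps were tested on simulated data.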

Additional observations from a re-analysis of the deposited data

How the results depend on the processing

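In 22 other settings the signs of all 9 members held in pre-MCS-01 against blank and against post-MCS-01 (0 of 198 values each), and turned in 3 of 198 values in pre-MCS-01 against DSCG, 35 in post-MCS-01 against blank, 38 in DSCG against blank and 29 in post-MCS-01 against DSCG. Members called stayed at 0 except in limma-voom with library quality weights, which called 2 in pre-MCS-01 against blank (Tek, Prox1), 3 in pre-MCS-01 against post-MCS-01 (Eng, Pecam1, Plvap) and 1 in the joint test (Tek). That fit weighted pre-MCS-01 1 at 5.48 and post-MCS-01 1 at 4.81, against 0.317 to 2.02 for the other 10. The count of all genes called moved with it to 2485 of 16267 (0 in edgeR) in pre-MCS-01 against blank, 3818 (134) in pre-MCS-01 against post-MCS-01 and 2189 (0) in the joint test, and with DESeq2 to 68, 428 and 566. In post-MCS-01 against blank it was 827 with quality weights and 406 with DESeq2 (0 in edgeR), and in post-MCS-01 against DSCG 0 with quality weights and 620 with DESeq2 (172 in edgeR).

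Signs that turned among the fold changes printed were those of Prox1 in pre-MCS-01 against DSCG (leaving out single libraries, -1.98 to 0.33), Pecam1 in post-MCS-01 against blank (-0.15 to 0.44; -0.005 with quality weights, -0.14 without the 3 libraries short of long transcripts), Plvap in DSCG against blank (-0.095 to 0.28) and Prox1 in post-MCS-01 against DSCG (-0.10 with exon-length trend as a covariate). In pre-MCS-01 against blank, leaving out single libraries turned Car4 (-0.31 to 1.92), Rgcc (-0.38 to 0.091), Dll4 (-0.89 to 0.11), Selp (-1.54 to 0.0097), Apln (-1.06 to 0.43) and Esm1 (-0.95 to 1.17), quality weights turned Car4 (-0.073), Rgcc (0.13) and Esm1 (-0.54), and exon-length trend as a covariate turned Dll4 (0.027). The causes were not tested. Leaving out single libraries moved the median of the 9 genes over -0.23 to 0.23 in post-MCS-01 against blank, -0.29 to 0.24 in DSCG against blank and -0.19 to 0.29 in post-MCS-01 against DSCG.

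No paired analysis was possible because every library comes from a mouse with its own number. Depth limits Prox1 above all: 3 counts, the limit that a count of 0 allows, are 0.786 CPM in blank 3 and 0.0588 to 0.0852 CPM in the other 11 libraries, for counting error only.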
